A study of Mus musculus with 16 samples.

Results

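The fatty acid and lipid handling families were taken as the genes whose symbol names an acyl-CoA dehydrogenase, oxidase, synthetase, thioesterase or thiolase, a carnitine palmitoyltransferase, an elongase or desaturase, a fatty acid-binding protein other than Fabp5 and Fabp7, an apolipoprotein (A to H), a phospholipase A2 or its receptor, a perilipin, a lipase, an HMG-CoA enzyme or a diacylglycerol acyltransferase. This rule found 50 of the 5954 named genes that have a row in any of the study's tables of RNA levels, and 127 protein-coding genes of the GENCODE vM21 annotation match it. Of the 50 genes, 46 had a row for quiescent hepatic stellate cells (qHSCs), 2 for GFP-high and 5 for GFP-intermediate activated hepatic stellate cells (aHSCs). The choice rests on names and not on measured values. The qHSC rows are genes past the authors' threshold, and the threshold behind the aHSC rows is not known. The level of a gene without a row is unknown here.

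RNA had been sequenced in 16 samples from 9 mice on a C57/Bl6 background. The 6 qHSC samples came from 3 uninjured WT1CreERT2;Ai14 animals after weaning, in which tamoxifen at E10.5 had marked WT1-expressing cells and their progeny with the red reporter (RFP), and each liver gave a lineage label-positive and a lineage label-negative fraction. The WT1CreERT2 allele is a knock-in at the WT1 locus, so the cells of both fractions carry it. The labels call these animals male, whereas the paper's methods describe females for this isolation. The 10 aHSC samples were RFP-positive cells of adult males injured for 8 weeks with carbon tetrachloride (CCl4), with 3 control (PDGFRbCre;WT1_+_GFP;Ai14) and 3 WT1-deleted (PDGFRbCre;WT1_fl_GFP;Ai14) samples of the GFP-high fraction, and 2 of each genotype for the fraction that the paper names GFP-intermediate and the labels GFP low. Control and deleted aHSCs alike carry 1 GFP knock-in allele at WT1, and Cre is driven constitutively by PDGFRb rather than induced. The GFP-intermediate samples came from 5 of the 6 animals that also gave the GFP-high ones, with 1 of the control samples combining 2 animals. No row named Wt1 alone, and rows that name several genes were not searched for it. Its level therefore did not serve as a check of the deletion.

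Each row gives 1 FPKM per group (fragments scaled to transcript length and to the mapped fragments of the library), in which the samples of the group had already been combined. No spread between animals can therefore be given for any value, the depth is unknown, and no comparison was tested again. A ratio is the log2 of the FPKM of label-positive over label-negative cells, or of WT1-deleted over control cells. Where a pair of FPKM values is given, label-negative or control cells come first. In bulk samples of this kind fewer cells of a type and less RNA per cell cannot be told apart. Of 15 genes typical of quiescent stellate cells 9 had a row in qHSCs, 4 higher and 5 lower in label-positive cells, with a median log2 ratio of -1.28. The lower ones were Vipr1, with 15.3 and 2.35, Nt5e, with 7.60 and 0.914, Cygb, with 2.63 and 1.09, Pdgfrb, with 0.905 and 0.370, and Ngfr, with 0.488 and 0.0344. Colec11, one of the higher ones, had 0.221 and 0.882. Pdgfrb, Ngfr and Colec11 thus lay below an FPKM of 1 in both fractions. The FPKM of the 9 genes summed to 48.1 in label-negative against 59.7 in label-positive cells, and Hgf alone had 17.0 and 44.1. Lrat, Reln, Des, Hand2, Ecm1 and Lhx2 had no row. All 15 listed genes of sinusoidal endothelial cells had a row, and these summed to 5000 and 13535.

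Fatty acids enter cells and are carried by fatty acid-binding proteins, are activated to acyl-CoA by synthetases, and are then oxidised in mitochondria after transfer by carnitine palmitoyltransferases, oxidised in peroxisomes, elongated and desaturated, or esterified into triglyceride and stored in perilipin-coated droplets. Hepatocytes run most of these routes in liver and secrete apolipoproteins. Quiescent stellate cells are known for droplets of retinyl ester, which they lose on activation. Many genes of fatty acid oxidation are controlled by the nuclear receptor PPARα, which binds direct repeats of a half-site spaced by 1 base, and many genes of sterol synthesis by SREBP, which binds sterol regulatory elements.

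Promoter sequences were available in the RefSeq table used here for 35 of the 50 genes, in 42 windows from 250 bases before to 50 bases after a start site. A direct repeat (DR1-type, the letters GGNCA, then any base, then AGGNCA), searched on both strands, was found for 2 of the 35 genes, Fabp1 and Acox2. It was found for 0.932% of all 27025 genes with a window and in 0.801% of all 32851 windows. The sterol-type element TCACNCCAC, also searched on both strands, was found for 2 of the 35, Hmgcs1 and Pla2g12a. It was found for 1.44% of all genes with a window and in 1.24% of all windows. No gene held both, and a match is a description of the letters only. The 250 bases before the start site are shown for 3 genes, of which Fabp1 had the largest ratio among the fatty acid-binding proteins, Acox2 was more than 10-fold higher in label-positive qHSCs, and Hmgcs1 held the sterol-type element. They are read 5′ to 3′ on the strand of the gene in GRCm38.p6, at chr6:71199629-71199878 on the plus strand, chr14:8259020-8259269 on the minus strand and chr13:119690101-119690350 on the plus strand, with the match in capitals. The match begins at -67 in Fabp1, where the motif lies on the opposite strand, at -56 in Acox2 and at -137 in Hmgcs1. Counted from another start site of Acox2, the same match begins at -236. The bases after the start site were found in a GENCODE transcript for Fabp1 and Acox2 but not for Hmgcs1.
Fabp1: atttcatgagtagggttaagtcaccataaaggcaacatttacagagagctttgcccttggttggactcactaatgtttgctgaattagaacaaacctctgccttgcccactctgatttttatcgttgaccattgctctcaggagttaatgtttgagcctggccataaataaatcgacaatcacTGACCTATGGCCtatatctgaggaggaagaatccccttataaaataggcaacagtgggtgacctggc
Acox2: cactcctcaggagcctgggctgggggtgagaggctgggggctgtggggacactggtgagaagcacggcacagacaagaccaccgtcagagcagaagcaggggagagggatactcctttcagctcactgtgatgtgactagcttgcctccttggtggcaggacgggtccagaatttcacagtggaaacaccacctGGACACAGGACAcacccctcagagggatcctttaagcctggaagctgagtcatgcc
Hmgcs1: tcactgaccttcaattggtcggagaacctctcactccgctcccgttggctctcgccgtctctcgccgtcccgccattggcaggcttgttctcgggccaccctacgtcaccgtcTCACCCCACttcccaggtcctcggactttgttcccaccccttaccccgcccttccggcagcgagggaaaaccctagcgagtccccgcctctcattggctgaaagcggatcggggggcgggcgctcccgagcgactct

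Between lineage label-positive and label-negative qHSCs, 35 of the 46 listed lipid genes had the higher FPKM in label-positive cells, a share of 76.1% beside 50.4% of all 5716 rows. A ratio of at least 2-fold towards label-positive cells was held by 26 genes (56.5%, beside 37.7% of all rows), and one of at least 2-fold towards label-negative cells by 8 (17.4%, beside 43.5%). At 4-fold the counts were 17 (37.0%, beside 6.91%) and 5 (10.9%, beside 26.1%). The median log2 ratio was 1.30 for the lipid genes and 0.64 for the 5584 rows not at 0 in either group. No lipid gene was listed at 0 in either group, 3 were below an FPKM of 1 in both, and 11 were below 1 in label-negative cells, so that several of the largest ratios start from low levels. All 46 rows had passed the threshold of the authors, so the counts describe the direction of listed genes and not how many genes of the families differ.

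**Figure D1:**
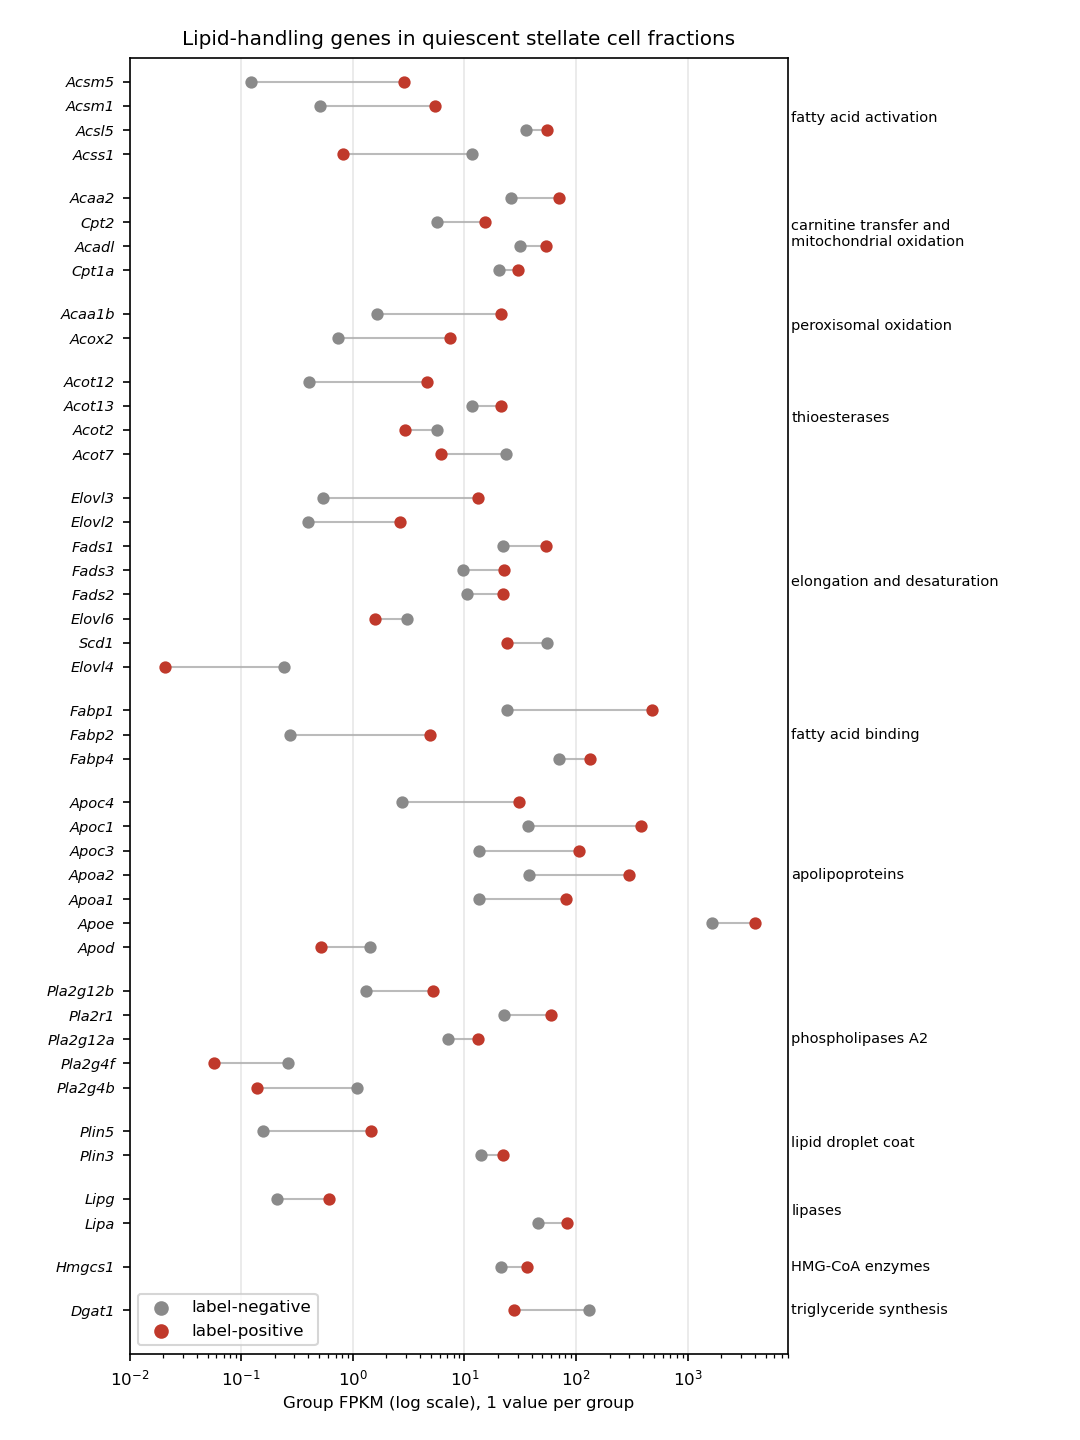
Group FPKM (log axis) of 43 of the 46 lipid genes with a row for quiescent cells, ordered by role. Grey points are label-negative and red points label-positive cells, 1 value per group; the red point lies to the right for 33 genes, and Apoe is the highest in both groups.

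**Figure D2:**
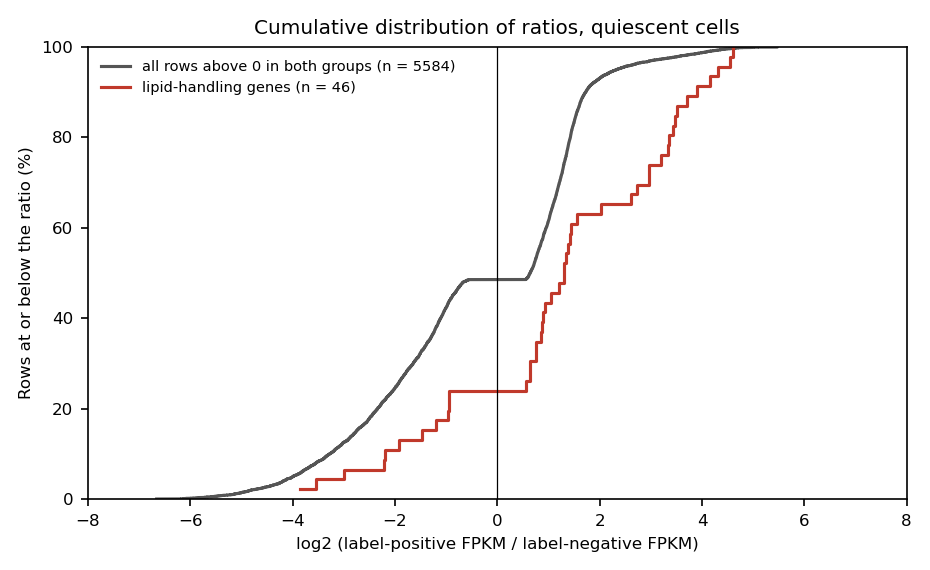
Cumulative share of rows (y axis, percent) at or below each log2 ratio of label-positive to label-negative FPKM (x axis) for the 46 lipid genes (red) and the 5584 rows above 0 in both groups (grey). The red curve lies to the right, and both are flat around 0 because rows with small ratios are not listed.

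Apolipoproteins were the most abundant class. Apoe, which carries lipoprotein remnants to their receptors, had 1647 FPKM in label-negative against 4054 in label-positive qHSCs. In label-positive cells this was the highest FPKM of all 5716 rows, and in label-negative cells it ranked at 15. Apoe alone made up 67.9% of the summed FPKM of the 46 genes in label-negative cells and 63.5% in label-positive cells, and without it the sums were 780 and 2329. Apoc1, a small exchangeable apolipoprotein, had 37.2 and 381, and Apoa2, a component of high-density lipoprotein, had 38.3 and 298. These are the largest differences in level among the apolipoproteins after Apoe. Apoc3, an inhibitor of lipoprotein lipase, had 13.5 and 106, Apoa1, the main protein of high-density lipoprotein, had 13.4 and 81.8, and Apoc4 had 2.78 and 31.0. The 5 genes other than Apoe and Apod had log2 ratios from 2.61 for Apoa1 to 3.48 for Apoc4, whereas that of Apoe was 1.30. Apod, which is made in many tissues outside the liver, was lower in label-positive cells, with 1.43 and 0.514. Apoa4, Apoa5, Apob, Apoc2, Apof and Apoh had no row.

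Some of these genes are neighbours in the genome. In GENCODE vM21 (GRCm38) Apoc4, Apoc1 and Apoe follow each other on chromosome 7 with no other protein-coding gene between them, at gaps of 8001 and 3448 bases, and Apoa1 and Apoc3 lie 2466 bases apart on chromosome 9. Within the first cluster the log2 ratio was 3.48 for Apoc4, 3.35 for Apoc1 and 1.30 for Apoe. Within the second it was 2.61 for Apoa1 and 2.97 for Apoc3. Apoe thus stood apart from both of its neighbours on the log2 ratio scale.

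The fatty acid-binding proteins with a row were all higher in label-positive qHSCs. Fabp1, the liver form, had 24.1 FPKM in label-negative against 478 in label-positive cells, a log2 ratio of 4.31. Its rank by FPKM among all rows was 1666 in label-negative against 82 in label-positive cells. Fabp2, the intestinal form, had 0.275 and 4.91, a log2 ratio of 4.16 from a level below 1. Fabp4, the form of adipocytes, macrophages and capillary endothelium, had the highest label-negative level of the 3 genes, 70.2, and 133 in label-positive cells, a log2 ratio of 0.92. The liver and intestinal forms thus differed far more between the fractions than Fabp4 did, on the ratio scale. Fabp3, Fabp6, Fabp9 and Fabp12 had no row.

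All 7 listed genes of mitochondrial and peroxisomal oxidation were higher in label-positive qHSCs. Among the mitochondrial genes, Acaa2, the thiolase of the last step of the cycle, had 26.2 FPKM in label-negative against 71.1 in label-positive cells, and Cpt2, the inner-membrane carnitine palmitoyltransferase, had 5.74 and 15.4. Acadl, a dehydrogenase of long-chain acyl-CoA, had 31.7 and 53.6, and Cpt1a, the outer-membrane transferase that controls entry, had 20.5 and 30.2. The log2 ratios of these 4 genes lay between 0.56 and 1.44. In peroxisomes, Acaa1b, a peroxisomal thiolase, had 1.65 and 21.4, and Acox2, which acts on branched chains and bile acid precursors, had 0.740 and 7.44. The log2 ratios were 3.70 for Acaa1b and 3.33 for Acox2. The transcript of Acaa1b is 96.6% identical to that of Acaa1a over 84.5% of its length, so reads of this pair could have been divided between them.

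Among 22 further genes of these routes that the naming rule does not cover, 13 had a row and 12 of them were higher in label-positive cells, with a median log2 ratio of 1.11. Scp2, which carries sterols and acts as a peroxisomal thiolase, had an FPKM of 71.0 and 251, Etfb, an electron carrier for the dehydrogenases, had 59.4 and 128, and Ehhadh, the peroxisomal bifunctional enzyme, had 2.13 and 9.37. The exception was Abcd2, a peroxisomal transporter, with 1.87 and 0.611. Of 15 regulators of lipid genes 5 had a row. The nuclear receptors Rxra, with 22.9 and 53.4, Nr1h3, with 5.17 and 14.7, and Nr1h4, with 0.578 and 4.08, were higher in label-positive cells, as was Klf15, with 0.883 and 5.10. Srebf2, which drives sterol synthesis, was lower, with 39.2 and 22.5. Ppara, Pparg and Ppard had no row.

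Activation and release of acyl groups split by gene. Acsl5, a synthetase for long chains, had 35.7 FPKM in label-negative against 55.5 in label-positive qHSCs, while the medium-chain synthetases Acsm1, with 0.506 and 5.44, and Acsm5, with 0.123 and 2.86, started from below 1 and had log2 ratios of 3.43 and 4.54. Acss1, a mitochondrial synthetase for acetate, had the lowest log2 ratio of the 46 genes, -3.85, with 11.8 and 0.817. Among the thioesterases, which release free fatty acids from acyl-CoA, Acot12 had 0.407 and 4.63 and Acot13 had 11.7 and 21.3. Acot7, known chiefly from brain, was lower in label-positive cells, with 23.5 and 6.23, and Acot2, a mitochondrial form, had 5.67 and 2.95. Each of these classes thus held genes of both directions.

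The elongases were split in the same manner. Elovl3, which makes very long saturated and monounsaturated chains, had 0.543 FPKM in label-negative against 13.2 in label-positive qHSCs, the largest log2 ratio of the 46 genes at 4.60. Elovl2, which extends polyunsaturated chains, had 0.398 and 2.63. Elovl6, which extends palmitate, was lower, with 3.09 and 1.59, and Elovl4 had 0.242 and 0.0207, both very low levels. The desaturases Fads1, Fads2 and Fads3 are neighbours on chromosome 19 and had similar log2 ratios of 1.31, 1.05 and 1.20, with 22.0 and 54.3, 10.6 and 22.0, and 9.80 and 22.5. Scd1, which places the first double bond in stearate and palmitate, went the other way, with 55.0 and 24.1.

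Scd1 was joined by other genes of lipid synthesis. Dgat1, which completes triglyceride and also esterifies retinol, had 131 FPKM in label-negative against 28.0 in label-positive qHSCs, a log2 ratio of -2.22. Fasn, the fatty acid synthase and not one of the 46 genes, had 15.7 and 6.74. Of 19 further sterol genes 6 had a row and 4 of these were lower in label-positive cells, among them Cyp51, with 16.3 and 5.0, and Sqle, with 7.51 and 3.16. Hmgcs1, which makes HMG-CoA for sterol synthesis, and Idi1 were higher, with 21.3 and 36.1 and with 10.7 and 20.5. The synthetic genes were thus not of 1 direction. Among 14 other synthesis genes 3 had a row, and of these Gpam, with 2.28 and 4.33, and Me1, with 1.68 and 11.3, were higher in label-positive cells.

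Of 5 perilipins and 11 lipases in the annotation, 2 of each had a row in qHSCs. Plin3, a perilipin found in most cells, had 14.2 FPKM in label-negative against 22.2 in label-positive qHSCs, and Plin5, a perilipin of oxidative tissues, had 0.158 and 1.44. Plin1, Plin2 and Plin4 had no row. Lipa, the lysosomal acid lipase, had 46.1 and 82.8, and Lipg, the endothelial lipase, had 0.208 and 0.611. Among 13 further droplet genes 5 had a row, 4 of them higher. G0s2, an inhibitor of triglyceride lipase, had 131 and 31.9, and Mgll, which cleaves monoglyceride, had 35.0 and 106. Among 15 lipoprotein genes outside the naming rule, the 4 with a row were all higher in label-positive cells. The most abundant was Gpihbp1, which holds lipoprotein lipase on capillary endothelium, with 278 and 864, followed by the fatty acid transporter Cd36, with 86.6 and 346. Of 16 genes of retinoid storage and use 6 had a row and 5 of these were higher, among them Rbp4, the plasma carrier of retinol, with 6.10 and 55.5, and Aldh1a1, with 4.17 and 52.1. Aldh1a2 was lower, with 2.16 and 1.08, and Lrat had no row.

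The phospholipases A2, which free the middle fatty acid of phospholipids, also held both directions. Pla2r1, a receptor of secreted forms, had 22.7 FPKM in label-negative against 59.1 in label-positive qHSCs. The secreted Pla2g12a had 7.08 and 13.2 and Pla2g12b had 1.30 and 5.28. The cytosolic Pla2g4b had 1.10 and 0.138, and Pla2g4f had 0.262 and 0.0574. Both cytosolic genes were lower in label-positive cells, at or near an FPKM of 1 and below. Pla2g4b is 100% identical to the annotated gene Gm28042 over 96.6% of its transcript, so its value may include reads of that gene.

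Markers of other liver cells also differed between the qHSC fractions. Of 20 hepatocyte genes 17 had a row and 16 were higher in label-positive qHSCs, with a median log2 ratio of 2.37 and a summed FPKM of 276 in label-negative against 1131 in label-positive cells. Alb had 107 and 302, Ttr had 16.0 and 95.0, and Arg1 had 2.98 and 84.8, whereas Hp had 79.8 and 32.1. None of the 17 was at 0 in either fraction, and Cyp3a11, Trf and Hpd had no row. The 15 endothelial genes had log2 ratios between 1.28 and 1.86. Of the 46 lipid genes 17 had a ratio above this range, including Fabp1, Elovl3 and the apolipoproteins other than Apoe and Apod. A further 7 lay within it, including Apoe, Acaa2, Cpt2 and Pla2r1, and 11 lay between 0 and 1.28. The other 11 were below 0 (23.9%, beside 49.6% of all rows). How many of all rows lie above or within the endothelial range was not counted, so these places do not set the lipid genes apart. Genes of neutrophils, 8 of 10 with a row, and of T, NK and B lymphocytes, 15 of 15, were all lower in label-positive cells, with sums of 2213 and 438 and of 1443 and 47.7. Of 15 macrophage genes 13 had a row, 8 higher and 5 lower, with a median log2 ratio of 1.11. Their sums were 2045 and 1184, of which Lyz2 alone made up 1283 and 289. Clec4f, Cd5l, Marco, Vsig4, Timd4, C1qa, C1qb and C1qc were higher, and Lyz2, Ctss, Cybb, Mpeg1 and Cd68 were lower. The part of any of these cell types in the lipid gene ratios was not tested.

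**Figure D3:**
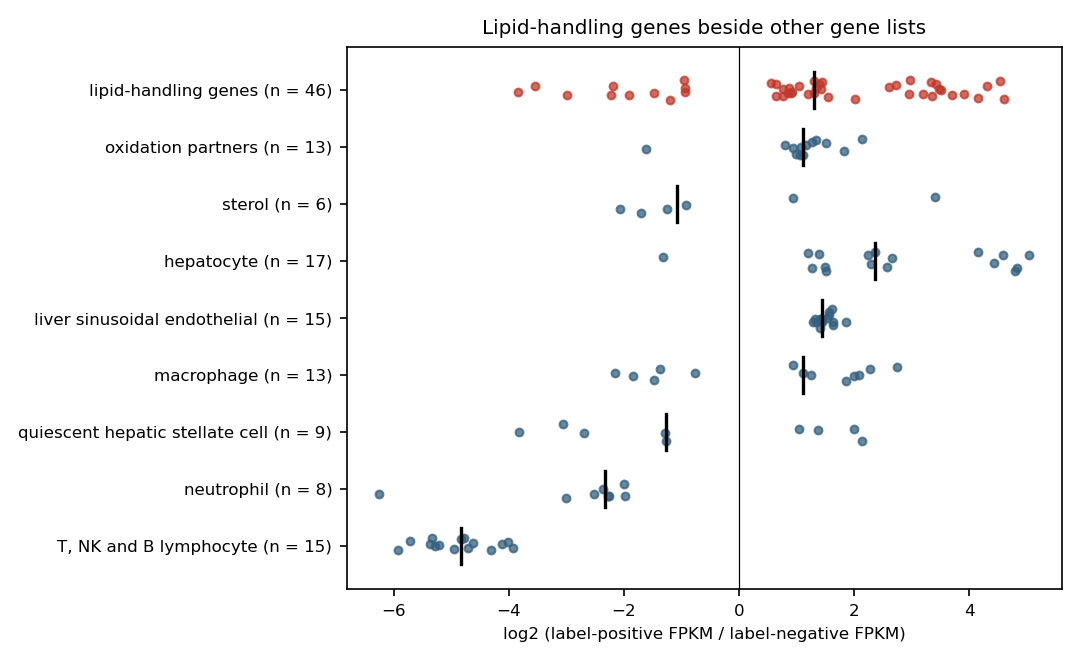
Log2 ratio of label-positive to label-negative FPKM (x axis) of each listed gene in the lipid families (red) and in 8 other lists (blue), with the median as a black bar and vertical scatter only for legibility. The lipid genes reach from the range of neutrophil genes on the left to that of hepatocyte genes on the right.

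After WT1 deletion fewer genes of any kind had a row than in qHSCs. In GFP-high aHSCs 2 of 123 named rows belonged to these families, beside 46 of 5716 rows in qHSCs. Elovl7, an elongase of long saturated chains, was lower, with 2.76 and 1.23 and a log2 ratio of -1.17. All 123 rows differed by at least 2-fold, 77.2% of them higher and 22.8% lower after deletion, so that a 2-fold ratio sets no gene apart. Hepatocyte genes with a row were Cps1, with 0.233 and 1.20, and Fga, with 2.65 and 6.39, out of 20. Neutrophil genes with a row, 6 of 10, were all lower after deletion, with a summed FPKM of 520 and 149, and the part of either list in these ratios was not tested.

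In GFP-intermediate aHSCs 5 of 419 named rows belonged to these families, 3 higher and 2 lower after WT1 deletion. All 419 rows differed by at least 2-fold, 37.2% of them higher and 62.8% lower. Acot1, a cytosolic thioesterase, had 4.68 FPKM in control against 13.6 in WT1-deleted cells, and Lipe, the hormone-sensitive lipase, had 8.98 and 21.5. Their log2 ratios were 1.54 and 1.26. Acot1 and Acot2 are neighbours on chromosome 12 and 93.8% identical over 58.8% of the Acot1 transcript, so the reads of this pair could have been divided between them.

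The 2 genes that were lower in WT1-deleted GFP-intermediate cells were both abundant lipases. Lpl, lipoprotein lipase, which frees fatty acids from circulating triglyceride, had 342 FPKM in control against 57.7 in WT1-deleted cells, at -2.57 on the log2 ratio scale, and ranked at 17 by FPKM among control rows. Lipa had 254 and 81.1, a log2 ratio of -1.64. Angptl4, an inhibitor of Lpl, went the other way, with 30.4 and 89.0. Abca1, which exports cholesterol, had 46.4 and 19.4, and Me1, which supplies NADPH for synthesis, had 6.87 and 15.4. No other gene of the pathway lists had a row. Beside these values, 8 of 15 macrophage genes had a row and all 8 were lower after deletion, with a summed FPKM of 3712 in control against 996 in WT1-deleted cells and log2 ratios between -2.34 and -1.42. Of 15 endothelial genes 3 had a row, Stab1, Mrc1 and Cdh5, with log2 ratios of -1.97, -1.87 and -1.15. The ratios of Stab1 and Mrc1 lay within the range of the macrophage genes. Stab2, Lyve1, Kdr, Pecam1 and the other endothelial genes had no row. Of 10 neutrophil genes 5 had a row, all lower. Of all named rows 62.8% were lower. None of the 20 hepatocyte genes had a row. Of 15 stellate cell genes 4 had a row, and Cygb, Colec11 and Rgs5 were higher and Hgf lower after deletion. The part of the macrophages, endothelial cells or neutrophils in the ratios of Lpl and Lipa was not tested.

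**Figure D4:**
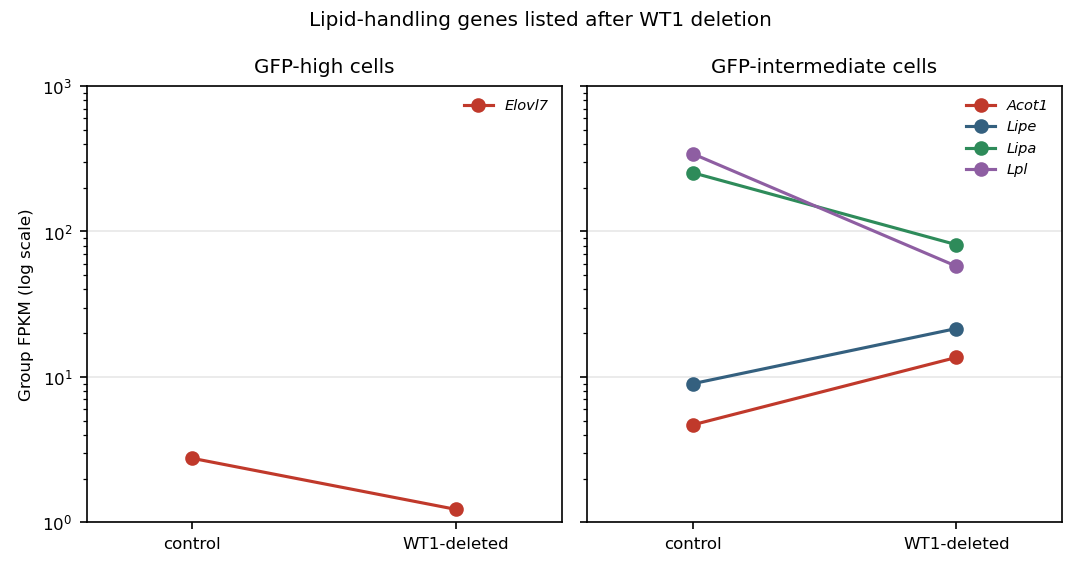
Group FPKM (log axis) of lipid genes with a row in GFP-high (left) and GFP-intermediate (right) cells, control and WT1-deleted, each point 1 group value and each line 1 gene. Lpl and Lipa start highest and are lower after deletion, as is Elovl7, while Acot1 and Lipe are higher.

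Lipa had a row in qHSCs and in GFP-intermediate aHSCs, with the higher value in label-positive cells in the former and in control cells in the latter. Whether the qHSC, GFP-high and GFP-intermediate values were normalised together is not known, so FPKM levels were not compared between them.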

How the data were processed

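RNA levels were compared between lineage label-positive and label-negative qHSCs (3 samples each), and between WT1-deleted and control aHSCs of the GFP-high (3 and 3) and GFP-intermediate (2 and 2) fractions, grouped by sample title. The authors sequenced on an Illumina HiSeq and used bowtie 2 for mapping and Cuffdiff2 to call genes at an adjusted p-value of 0.05, with DESeq2 for a principal component plot only. The submitters' processing notes also name TopHat2 2.0.3 and Cufflinks 2.0.1, with mm9 and mm10, without their roles. The authors deposited FPKM, 1 value per group. The 5716 qHSC rows equal in number the differentially expressed genes that the paper reports. For both WT1 deletion comparisons the paper reports fewer genes than there are named rows here, so the threshold behind those rows is not known. The authors' fold changes, p-values and q-values were not used.

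The log2 ratio of group FPKM was computed without a pseudocount, and counts past a fold of 2 or 4 over the lipid genes are given beside those over all named rows. Loci with no gene name were left out, 108 in the GFP-high table and 149 in the GFP-intermediate one. Genes of the further lists were looked up only in rows that name 1 gene. After WT1 deletion some rows name several genes, so a list gene said to have no row there could lie in one of these. The genes and lists were chosen with earlier results of these data known. Named by rule were all lipid genes in the deletion tables, and in qHSCs those with an FPKM of at least 10, with an absolute log2 ratio of at least 2 at an FPKM of at least 1, or with the highest or lowest ratio of their class. This named 43 of 46, and Acot2, Elovl6 and Pla2g4f were added after their values were seen. Some genes that the rule names are not reported here, though they stay in the counts. For all 46 qHSC genes the deposited identifier was that of the symbol in GENCODE vM21. Transcripts were compared with blastn 2.17.0 (at least 90% identity over at least 50% of the transcript). Promoters are from RefSeq (GRCm38.p6). The ratio code was tested on simulated data, with Python 3.11.15, numpy 2.4.6 and pandas 2.3.3.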

Additional observations from a re-analysis of the deposited data

How the results depend on the processing

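Counts of lipid genes in qHSCs kept their direction under a pseudocount of 0.1 or 1, a floor of 1 FPKM on the higher group, a fold of 1.5 and rows that name 1 gene. With a pseudocount of 1 the lipid genes at least 2-fold lower in label-positive qHSCs numbered 4 instead of 8, because that setting shrinks ratios of low values. Of all qHSC rows 30.2% were then lower, instead of 43.5%. In GFP-high aHSCs 0 lipid genes instead of 1 were lower, beside 19.5% of all rows instead of 22.8%. At a fold of 4, 17 lipid genes were higher and 5 lower in qHSCs, 0 were higher and 0 lower in GFP-high aHSCs (beside 52.0% and 11.4% of all rows), and 1 was higher and 1 lower in GFP-intermediate aHSCs (beside 11.9% and 22.0%). Single ratios moved by more than a factor of 1.5 for 15 of 46 genes in qHSCs with a pseudocount of 1 and for 5 with one of 0.1, and no sign changed. With 1 value per group, no sample could be left out, no test could be repeated and the depth is unknown. No paired analysis was possible because the samples of each group had been combined into 1 value, although the qHSC fractions came from the same animals.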

Other observations

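Lists of other cell types gave these values beside the lipid genes. Of 10 mesothelial genes 7 had a row in qHSCs, all higher in label-positive cells, with sums of 17.6 FPKM in label-negative against 52.0 in label-positive cells. The most abundant were the keratins Krt18, with 3.95 and 15.8, and Krt8, with 4.80 and 13.7. Msln had 1.65 and 4.67, and Upk1b had 1.09 and 2.46. Krt19, Wt1 and Muc16 had no row. Of 10 adipocyte genes 2 had a row in qHSCs, Car3, with 13.4 and 337, and Gpd1, with 0.889 and 13.6. Adipoq, Retn, Cfd, Lep, Cidec, Adrb3, Slc2a4 and Tshr had none, so no adipocyte signal is read from these 2 genes. In GFP-intermediate aHSCs Car3 had 1.97 in control and 14.2 in WT1-deleted cells. Of 15 pancreatic acinar genes 5 had a row in qHSCs, each higher in label-positive cells, among them Pnlip, the pancreatic triglyceride lipase, with 56.7 and 171. In GFP-intermediate aHSCs 5 acinar genes had a row, all listed at 0 after WT1 deletion, and Pnlip had 3.16 in control cells. Pnlip acts on dietary triglyceride and is outside the naming rule.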
